A study of Mus musculus with 12 samples.

Results

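The genes described here are 10 dual-specificity MAP kinase phosphatases, Dusp1, Dusp2, Dusp4, Dusp5, Dusp6, Dusp7, Dusp8, Dusp9, Dusp10 and Dusp16. They were taken by name from the 19938 genes of the expression table, and all 10 were measured. They were chosen by family and with the values of these arrays known, above all the Dusp6 differences from vehicle after FGF23 and in KL null kidney, so the levels of the members are given as a description with no test. Tests are given for other genes of the pathway.

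RNA from whole kidneys of female mice was measured on 12 Affymetrix whole-transcript arrays, 4 in each of 3 groups, and all mice were killed 1 hour after a single injection into the peritoneum. In the FGF23 group, wild-type (WT) mice of strain C57BL/6 were given 500 ng of recombinant FGF23 per g body weight. In the KL null group, mice lacking a functional klotho gene, with the strain label 129/SvEv/C57BL/6, were given 100 µl of saline vehicle. In the vehicle group, WT C57BL/6 mice received the same saline. All groups had been kept on standard diet for 5 to 8 weeks. The protocol speaks of wild-type littermates while the strain labels differ between genotypes, so strain and loss of klotho cannot be told apart. The labels do not say that each array holds a separate mouse, so p-values cover only the variation among these arrays, which may be technical. The HBEGF injections that the protocol names were not analysed here.

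MAP kinase phosphatases remove the phosphates from both the threonine and the tyrosine of the activation loop of MAP kinases, which switches the kinase off. Many of their genes are themselves switched on by the kinase they inactivate, which makes them feedback inhibitors of the pathway. They are usually sorted by location and substrate: Dusp6, Dusp7 and Dusp9 are cytoplasmic and act mainly on ERK, Dusp1, Dusp2, Dusp4 and Dusp5 are nuclear and quickly inducible, and Dusp8, Dusp10 and Dusp16 act mainly on JNK and p38. In the kidney, the bone hormone FGF23 binds FGF receptors together with klotho, the co-receptor encoded by Kl, and ERK is one of the pathways this receptor activates.

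Values are log2 RMA signals, on which a difference of 1 is a doubling of the signal of that gene. The arrays carry kidney tissue by their markers: the mean signal of 10 proximal tubule genes was 11.68 to 12.16 over the 12 arrays. Kl was lower in the KL null arrays, at 9.66, 9.76, 9.66 and 9.80, than in the vehicle arrays, at 10.67, 10.45, 10.74 and 10.58 (log2 difference -0.89, SE 0.0831, adjusted p = 1.75e-05 with limma over all genes). Signal at the Kl probe set thus remained in KL null kidney, and which exons it covers is not known here. FGF23 replicates 1 and 2 stood apart from the other arrays by the narrowest spread of log2 values, with standard deviations of 2.166 and 2.167 against 2.195 to 2.281 on the other 10 arrays. Without these arrays the log2 difference after FGF23 was 0.39 for Dusp5, 0.03 for Dusp8, 0.04 for Dusp9 and 0.00 for Dusp16. For the other members it is given below. RNA came from whole tissue, so fewer cells of a type and less RNA per cell cannot be told apart.

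After FGF23, 9 of the 10 phosphatase genes had a higher mean and 1 a lower mean than with vehicle. The median log2 difference of the 10 was 0.45, beside 0.04 over all genes, 58.7% of which had a positive difference. For Dusp2, Dusp4, Dusp5 and Dusp6, 4 of the 10, every FGF23 array lay above every vehicle array, a pattern found in 4.09% of all genes, and for none did every FGF23 array lie below (2.92% of all genes). In KL null kidney, 5 members had a higher and 5 a lower mean than in WT vehicle kidney, with a median of -0.02 beside 0.02 over all genes, 56.2% of which had a positive difference. For Dusp6, 1 of the 10, every KL null array lay below every vehicle array, as was the case for 7.44% of all genes, and for none did every KL null array lie above (6.35%). Nothing is read from these counts, because the choice of the members used both comparisons. By class, the log2 differences after FGF23 ran from 0.12 to 1.27 for the 3 cytoplasmic genes, from 0.42 to 0.91 for the 4 nuclear inducible genes and from -0.02 to 0.21 for the 3 genes acting on JNK and p38.

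**Figure D1:**
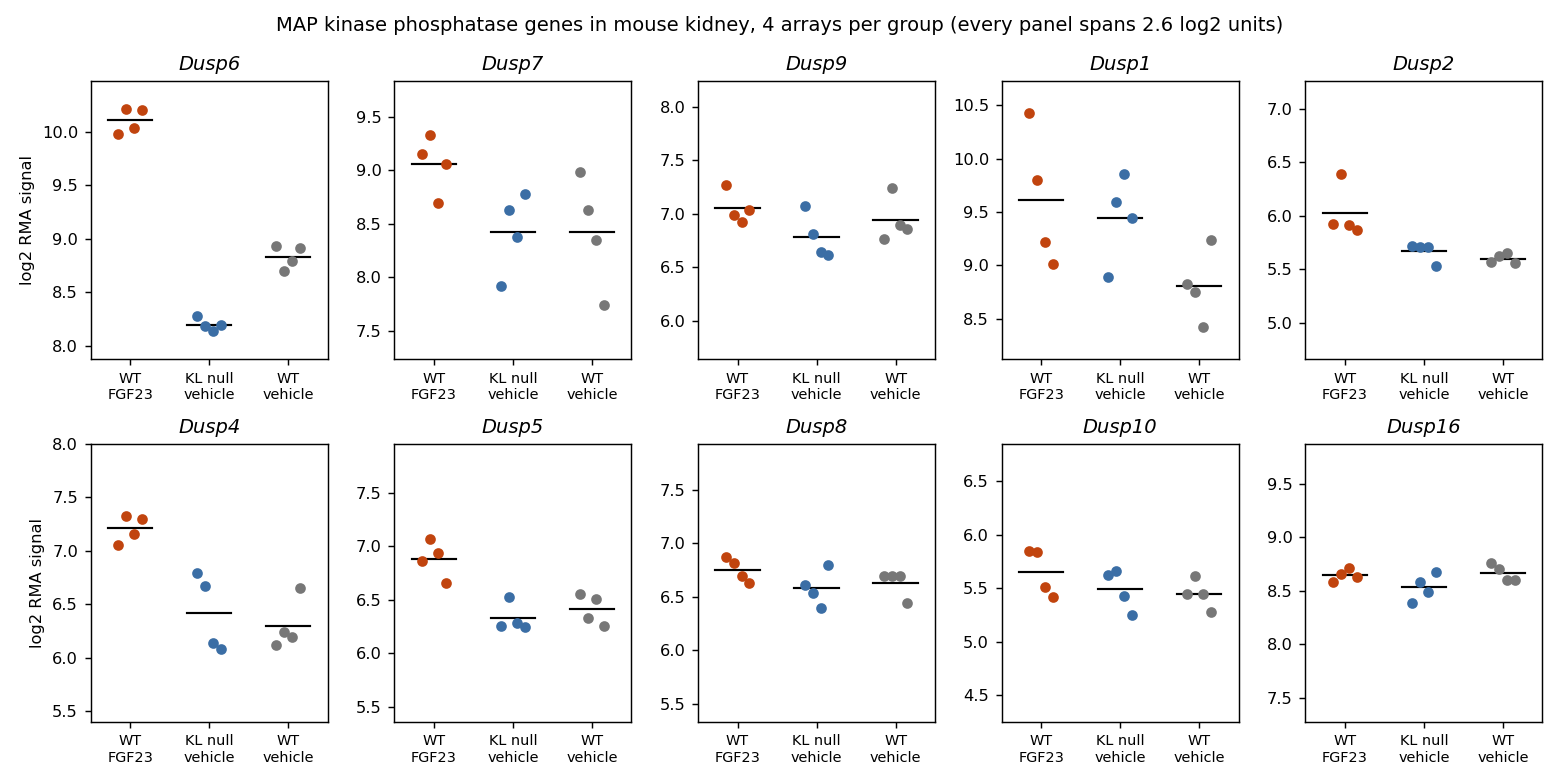
Log2 RMA signal of each of the 10 genes on the 12 arrays, with FGF23-treated WT, KL null and vehicle-treated WT kidney from left to right; each point is 1 array, each line is a group mean, and all panels span the same number of log2 units. Dusp6 is the gene whose 3 groups lie wholly apart, with FGF23 highest and KL null lowest, while the groups of Dusp7, Dusp9, Dusp8, Dusp10 and Dusp16 overlap.

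Dusp6, the cytoplasmic phosphatase that binds and inactivates ERK and that FGF signalling induces in many tissues, had the largest difference of the 10 after FGF23 and was the member whose KL null arrays all lay below vehicle. Its signal was 9.98, 10.21, 10.04 and 10.20 in FGF23 arrays, 8.28, 8.18, 8.14 and 8.19 in KL null arrays, and 8.93, 8.70, 8.79 and 8.91 in vehicle arrays. No 2 groups overlapped, and the groups were tight, with means of 10.11 ± 0.12, 8.20 ± 0.06 and 8.83 ± 0.11 in FGF23, KL null and vehicle kidney (SD, n = 4 each). The difference from vehicle was 1.27 after FGF23 (SE 0.0838, 2.42-fold higher) and -0.64 in KL null kidney (SE 0.0838, 1.55-fold lower). Over the 22 alternative settings the first ranged from 1.23 to 1.32 and the second from -0.69 to -0.60, and without FGF23 replicates 1 and 2 the difference after FGF23 was 1.29. Both comparisons use the same vehicle arrays.

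The promoter of Dusp6 is shown because this gene carries the opposite differences. It is the RefSeq window from 250 bases before to 50 bases after the gene start, chr10:99262981-99263280 on the plus strand of GRCm38.p6, and the capitals mark the match to a searched motif, here AGGAAG on the opposite strand, a binding motif of the PEA3 type of ETS factors, at -210 to -205.

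Dusp6: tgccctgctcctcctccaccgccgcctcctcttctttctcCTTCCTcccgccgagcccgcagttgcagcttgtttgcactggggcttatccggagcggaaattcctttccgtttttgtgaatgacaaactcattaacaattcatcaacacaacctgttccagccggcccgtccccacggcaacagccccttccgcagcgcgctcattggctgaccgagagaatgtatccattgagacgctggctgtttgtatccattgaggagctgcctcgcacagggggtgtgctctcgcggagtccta

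The motifs were searched on both strands. They were the full cAMP response element TGACGTCA, the shorter TGACG, which the full element contains, the CArG box of serum response factor, GCGNGGGCG of EGR factors, and the ETS motifs CCGGAA and AGGAAG. RefSeq windows were held for 8 of the 10 members, and Dusp4 and Dusp9 were not among them. AGGAAG stood in 35.1% of 27025 promoters of the same length, so the match in Dusp6 is a common one. CCGGAA, found in 15.2% of promoters, had no match in the 8 windows, and this says only that these letters are not in these windows.

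Dusp7, also a cytoplasmic ERK phosphatase, had one of the widest scatters. Its signal was 9.15, 9.33, 8.69 and 9.06 in FGF23 arrays, 7.92, 8.63, 8.38 and 8.78 in KL null arrays, and 8.98, 8.63, 8.35 and 7.74 in vehicle arrays. The vehicle arrays alone spread over more than a log2 unit, and the FGF23 arrays overlapped them. The mean after FGF23 was 0.63 higher (SE 0.231), with 0.40 when vehicle replicate 4, the lowest array, was left out and 0.45 without FGF23 replicates 1 and 2. In KL null kidney the difference was 0.00 (SE 0.231), with values from -0.23 to 0.19 as single arrays were left out.

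Dusp9, another ERK phosphatase, best known for its role in the mouse placenta, showed overlapping groups. Signals were 7.27, 6.99, 6.92 and 7.03 in FGF23 arrays, 7.07, 6.81, 6.64 and 6.61 in KL null arrays, and 6.76, 7.24, 6.89 and 6.86 in vehicle arrays. The differences from vehicle were 0.12 after FGF23 and -0.16 in KL null kidney (SE 0.124 each), of the size of their errors. The first was -0.12 with the array standard deviation as a covariate. The ERK-selective class thus held a gene with tight, separate groups and 2 genes whose groups overlapped in both comparisons.

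Dusp4, a nuclear phosphatase of ERK and JNK, had the second largest difference after FGF23. Its signal was 7.05, 7.32, 7.16 and 7.30 in FGF23 arrays, 6.79, 6.67, 6.14 and 6.08 in KL null arrays, and 6.12, 6.24, 6.19 and 6.65 in vehicle arrays. All FGF23 arrays lay above all vehicle arrays, and the KL null arrays held 2 higher and 2 lower values that overlapped vehicle. The difference after FGF23 was 0.91 (SE 0.157, 1.88-fold higher), 0.93 without FGF23 replicates 1 and 2 and 0.71 with the array standard deviation as a covariate. The KL null difference was 0.12 (SE 0.157).

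Dusp5, a nuclear phosphatase specific for ERK, was higher after FGF23 by 0.47 (SE 0.104, 1.39-fold). Its signal was 6.86, 7.07, 6.94 and 6.66 in FGF23 arrays, 6.26, 6.53, 6.28 and 6.25 in KL null arrays, and 6.55, 6.33, 6.51 and 6.26 in vehicle arrays. The FGF23 arrays lay above all vehicle arrays, and the KL null arrays lay within the range of vehicle but for the lowest one. The KL null difference was -0.08 (SE 0.104). Over the alternatives the difference after FGF23 ran from 0.38 to 0.54.

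Dusp2, a nuclear phosphatase best known from activated immune cells, had signals of 5.92, 6.39, 5.91 and 5.87 in FGF23 arrays, 5.72, 5.71, 5.71 and 5.53 in KL null arrays, and 5.57, 5.62, 5.65 and 5.56 in vehicle arrays. The FGF23 arrays lay above all vehicle arrays, and replicate 2 stood far above its group. The difference after FGF23 was 0.42 (SE 0.106, 1.34-fold), 0.30 without FGF23 replicate 2 and 0.29 without FGF23 replicates 1 and 2. For KL null kidney it was 0.07 (SE 0.106).

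Dusp1, an immediate early phosphatase that acts on p38, JNK and ERK, had a higher mean than vehicle in both comparisons and the widest scatter of the 10, with a standard deviation within groups of 0.48. Its signal was 10.43, 9.80, 9.22 and 9.01 in FGF23 arrays, 8.89, 9.59, 9.86 and 9.44 in KL null arrays, and 8.83, 8.75, 8.42 and 9.24 in vehicle arrays. Vehicle replicate 4 overlapped both other groups. The difference after FGF23 was 0.80 (SE 0.27, 1.75-fold), but 0.53 without FGF23 replicate 1 and 0.30 without FGF23 replicates 1 and 2, which had the highest Dusp1 signals of their group and the narrowest spreads of log2 values of the 12 arrays. Egr1, another immediate early gene, ran the other way over the same arrays, with 8.93, 9.17, 9.56 and 9.69 in FGF23 replicates 1 to 4. In KL null kidney Dusp1 was 0.63 higher (SE 0.27, 1.55-fold), with 0.50 to 0.82 as single arrays were left out. Of 8 myeloid cell markers, 3 rose and 1 fell in KL null kidney, beside 3.58% and 4.44% over all genes. Their mean signal per array was 6.63 to 7.29 in KL null against 6.38 to 6.80 in vehicle kidney. KL null replicate 1 was lowest of its group in both Dusp1 and the myeloid mean. The other groups ran the other way. Vehicle replicate 3 had the highest myeloid mean of its group (6.80) and the lowest Dusp1 signal. FGF23 replicates 1 and 2 had the lowest myeloid means of theirs (6.23 and 6.07) and the highest Dusp1 signals. The part of these cells in the Dusp1 difference was not tested.

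The promoters of the nuclear inducible genes are shown because their means were all higher after FGF23, and capitals mark the matches to the searched motifs. The Dusp5 window lies at chr19:53528895-53529194 on the plus strand, the Dusp2 window at chr2:127335909-127336208 on the plus strand and the Dusp1 window at chr17:26508423-26508722 on the minus strand, each in GRCm38.p6 and written 5′ to 3′ along its gene.

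Dusp5: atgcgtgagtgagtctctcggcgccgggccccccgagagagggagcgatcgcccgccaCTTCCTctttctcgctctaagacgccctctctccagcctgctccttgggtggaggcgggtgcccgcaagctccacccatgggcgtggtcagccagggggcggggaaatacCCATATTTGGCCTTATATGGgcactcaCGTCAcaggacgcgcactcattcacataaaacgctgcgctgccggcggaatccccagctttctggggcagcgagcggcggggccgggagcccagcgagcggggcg

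Dusp2: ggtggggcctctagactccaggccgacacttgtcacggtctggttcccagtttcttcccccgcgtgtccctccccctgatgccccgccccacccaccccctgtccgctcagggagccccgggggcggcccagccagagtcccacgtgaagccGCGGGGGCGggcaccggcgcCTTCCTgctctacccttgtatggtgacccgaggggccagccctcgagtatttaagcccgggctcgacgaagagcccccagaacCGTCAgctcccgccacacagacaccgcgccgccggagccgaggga

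Dusp1: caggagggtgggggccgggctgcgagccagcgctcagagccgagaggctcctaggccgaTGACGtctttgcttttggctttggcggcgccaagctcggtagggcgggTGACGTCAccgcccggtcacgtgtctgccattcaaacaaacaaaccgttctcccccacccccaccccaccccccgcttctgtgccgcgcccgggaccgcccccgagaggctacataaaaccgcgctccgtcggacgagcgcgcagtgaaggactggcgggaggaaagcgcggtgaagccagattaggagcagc

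Dusp5 held 2 adjoining CArG boxes, at -82 to -73 and -72 to -63, a motif present in 1.57% of all promoters. It was the only one of the 8 windows with this motif, and it also held TGACG at -55 to -51 and AGGAAG at -192 to -187, both on the opposite strand. Dusp2 held GCGNGGGCG at -98 to -90, a motif of 5.55% of promoters, and on the opposite strand AGGAAG at -78 to -73 and TGACG at 6 to 10. Dusp1 held TGACGTCA at -143 to -136, found in 1.88% of promoters, and TGACG at -191 to -187, found in 21.0%. These matches are letters in a window and were not tested against the expression values.

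Dusp8, which acts on JNK and p38, had signals of 6.87, 6.81, 6.69 and 6.63 in FGF23 arrays, 6.61, 6.53, 6.39 and 6.80 in KL null arrays, and 6.69, 6.69, 6.69 and 6.44 in vehicle arrays. The groups overlapped, and the differences were 0.12 after FGF23 and -0.05 in KL null kidney (SE 0.0994 each). Dusp8 was the only member with 2 probe sets, and the dimmer one differed by -0.01 after FGF23 and -0.15 in KL null kidney (SE 0.111 each).

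Dusp10, a p38 and JNK phosphatase, had signals of 5.85, 5.84, 5.51 and 5.42 in FGF23 arrays, 5.62, 5.66, 5.43 and 5.25 in KL null arrays, and 5.44, 5.61, 5.44 and 5.28 in vehicle arrays. FGF23 replicates 1 and 2 held the high values, and without them the difference after FGF23 was 0.02 in place of 0.21 (SE 0.121). With the array standard deviation as a covariate it was -0.04. The KL null difference was 0.05.

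Dusp16, which acts mainly on JNK, had the tightest groups of the 10. Its signal was 8.58, 8.66, 8.71 and 8.63 in FGF23 arrays, 8.39, 8.58, 8.49 and 8.68 in KL null arrays, and 8.76, 8.70, 8.60 and 8.60 in vehicle arrays. The differences were -0.02 after FGF23 and -0.13 in KL null kidney (SE 0.0815 each), with overlapping groups in both. Its standard deviation within groups, 0.09, was close to the 0.10 of Dusp6, whose difference after FGF23 was 1.27.

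The promoter of Dusp8 is shown as the window of this class with the most full cAMP response elements, at chr7:142095235-142095534 on the minus strand of GRCm38.p6.

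Dusp8: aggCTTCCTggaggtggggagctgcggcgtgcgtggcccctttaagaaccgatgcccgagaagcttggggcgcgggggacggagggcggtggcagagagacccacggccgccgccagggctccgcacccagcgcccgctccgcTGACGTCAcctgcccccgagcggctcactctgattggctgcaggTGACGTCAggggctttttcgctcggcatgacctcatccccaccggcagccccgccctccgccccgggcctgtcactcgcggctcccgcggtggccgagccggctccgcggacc

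TGACGTCA stood at -107 to -100 and at -63 to -56, and AGGAAG on the opposite strand at -247 to -242. Dusp1 and Dusp8 were the 2 members with the full element, and their differences after FGF23 were 0.80 and 0.12. Dusp16 held TGACG at -70 to -66 and GCGNGGGCG on the opposite strand at -138 to -130. Dusp7 and Dusp10 had no match to any of these motifs.

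**Figure D2:**
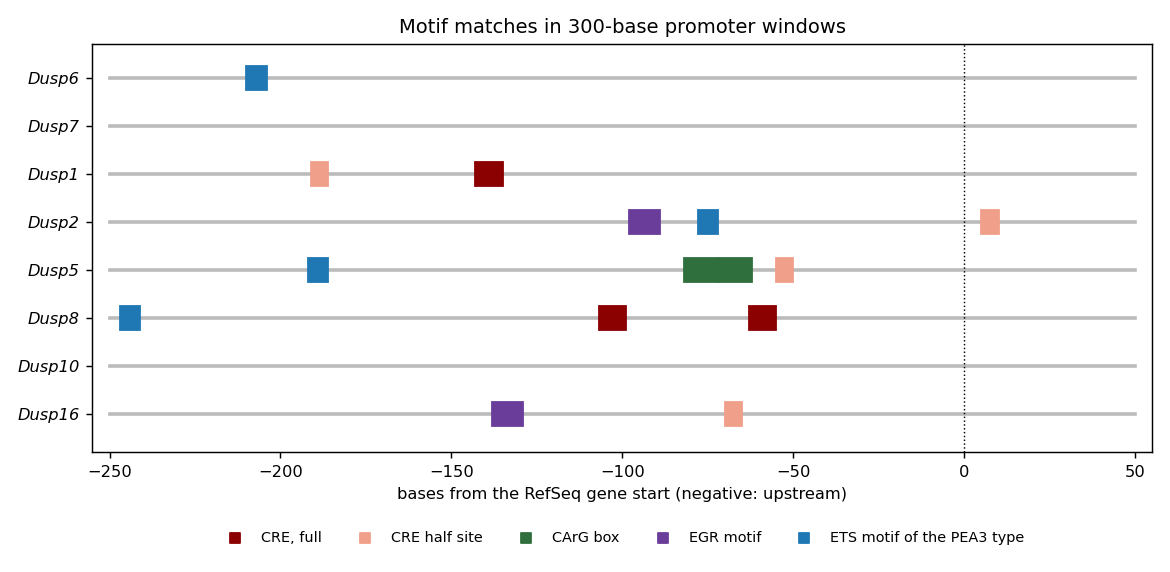
Motif matches in the promoter windows of the 8 members held in RefSeq's table, by distance in bases from the gene start, with 250 bases upstream at the left and 50 downstream at the right. The adjoining CArG boxes are in Dusp5, full cAMP response elements are in Dusp1 and Dusp8, and Dusp7 and Dusp10 have no match.

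**Figure D3:**
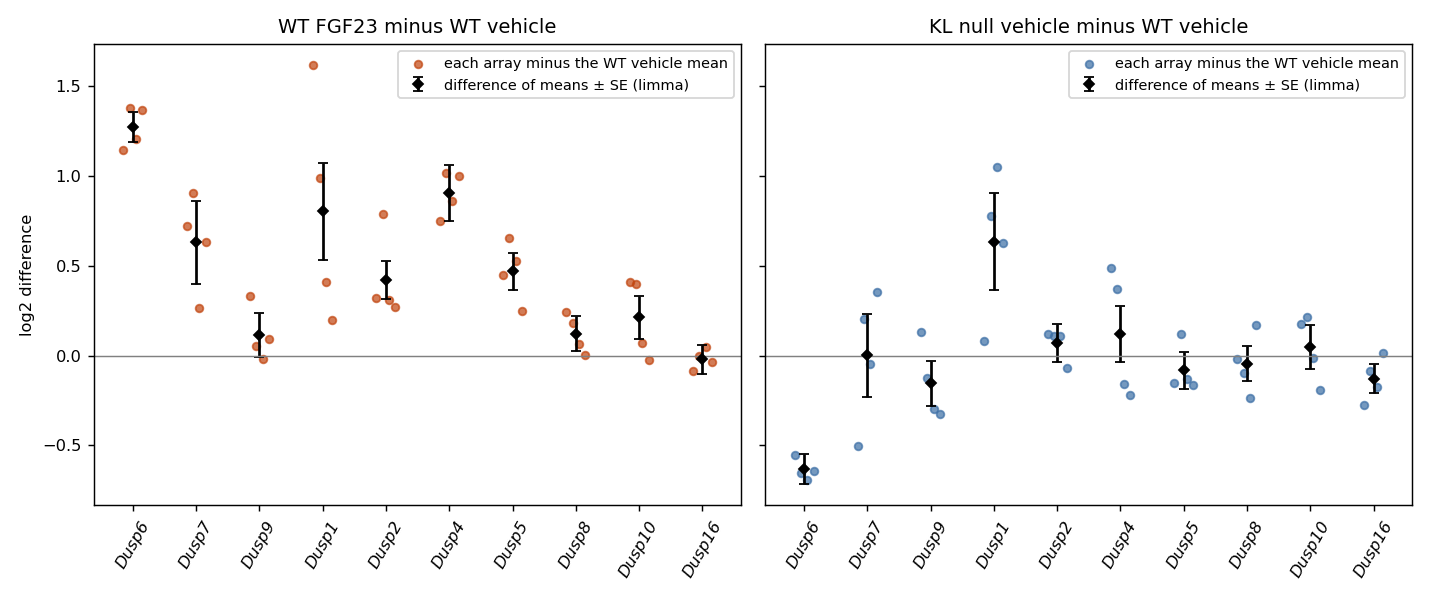
Log2 difference from the WT vehicle mean for each of the 10 genes, after FGF23 on the left and in KL null kidney on the right; coloured points are single arrays, diamonds the difference of means and bars its SE. Dusp6 is at 1.27 on the left and -0.64 on the right, and Dusp1 is above 0 on both sides with widely spread arrays.

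For the calls over all genes, 17 of the 19938 genes (0.0853%) had an adjusted p below 0.05 after FGF23, 16 higher (0.0802%) and 1 lower (0.00502%). In KL null kidney 1598 genes (8.01%) were called, 713 higher (3.58%) and 885 lower (4.44%). After median centring of the arrays the KL null split was 453 higher and 1369 lower. With 1 array left out these counts were 4 to 14 and 828 to 1728. At an unadjusted p below 0.05 there were 15.4% of all genes after FGF23 and 21.3% in KL null kidney.

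ERK-responsive genes, a list of transcription factors, feedback inhibitors and other early targets of ERK without the phosphatases, give the setting of these values. Of 29 measured genes, 7 rose after FGF23 and 0 fell, beside 0.0802% and 0.00502% over all genes. The median log2 difference was 0.21 beside 0.04 over all genes. The list was drawn up with results of these arrays known, so its count is not independent evidence of its direction. Egr1, a zinc finger transcription factor, rose by 3.18 (SE 0.144, 9.05-fold, limma adjusted p = 1.55e-08), Hbegf, a ligand of the EGF receptor, by 1.63 (adjusted p = 0.00153) and Ier2, an immediate early gene, by 0.97 (adjusted p = 0.00105). In each of these 3, all FGF23 arrays lay above all vehicle arrays, and each call was kept in every alternative that gave a value. The RNA-binding protein gene Zfp36 rose by 1.15 (adjusted p = 0.0127), but the call was lost without FGF23 replicate 3 or vehicle replicate 2 or 3, with adjusted p of 0.0508 to 0.0806. Nab2, a corepressor of EGR factors, rose by 0.76 and the AP-1 gene Junb by 0.73 (adjusted p = 0.047 each). The Nab2 call was lost without FGF23 replicate 2, 3 or 4, any vehicle replicate, or KL null replicate 1 or 3 (adjusted p 0.0641 to 0.175), and in 12 of 22 alternatives in all. The Junb call was lost without any FGF23 replicate, vehicle replicate 2, 3 or 4, or KL null replicate 2 or 3 (adjusted p 0.0622 to 0.175), and in 14 of 21 alternatives in all, with an adjusted p of 0.39 without FGF23 replicates 1 and 2. Spry4, a feedback inhibitor of receptor tyrosine kinase signalling, was the seventh, with a rise of 0.49 (adjusted p = 0.047), and its call was lost whichever of the 12 arrays was left out (adjusted p 0.0629 to 0.175).

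The same list split in KL null kidney, where 2 of the 29 genes rose and 4 fell, beside 3.58% and 4.44% over all genes. Its median was 0.01 beside 0.02 over all genes. Etv1, an ETS factor of the PEA3 group, fell by 1.95 (SE 0.118, adjusted p = 5.52e-07) and Etv5, of the same group, fell by 0.90 (adjusted p = 0.000198). Etv1 signals were 5.83, 6.17, 5.52 and 6.01 in KL null arrays against 7.85, 7.87, 7.76 and 7.86 in vehicle arrays, and 7.50 to 7.79 after FGF23, where the difference was -0.21 (adjusted p = 0.391). Etv5 differed by 0.01 after FGF23 (adjusted p = 0.979). Dusp6, also lower in KL null kidney, differed by 1.27 after FGF23, beside the -0.21 and 0.01 of these 2 ETS genes. Phlda1, an early response gene, fell by 0.37 (adjusted p = 0.03), and Spred2, an inhibitor of RAS-ERK signalling, fell by 0.32 (adjusted p = 0.0352). The oncogene Myc rose by 0.49 (adjusted p = 0.00924) and the cyclin gene Ccnd1 by 0.54 (adjusted p = 0.0271). Egr1 was 0.40 higher in KL null kidney (adjusted p = 0.106) and did not pass. Some of these calls were lost when single arrays were left out, that of Phlda1 without vehicle replicate 1 or 3 or KL null replicate 2, 3 or 4 (adjusted p 0.0562 to 0.102), and that of Spred2 without vehicle replicate 1, 2 or 4 or KL null replicate 1, 2 or 4 (0.0618 to 0.0992), and its call was also lost after a further quantile normalization. Ccnd1 lost its call without vehicle replicate 2 or 4 or KL null replicate 2 or 3 (adjusted p 0.066 to 0.0819), and without KL null replicate 2 the list had 3 called genes in place of 6. Of 10 proximal tubule markers, 6 fell in KL null kidney, beside 4.44% over all genes. Their array means were 11.68 to 11.83 against 11.96 to 12.16 with vehicle, and their part in these values was not tested.

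Atypical and related dual-specificity phosphatases, most of which lack the MAP kinase binding domain of the 10 members were counted next. Of 23 measured genes, 0 rose and 0 fell after FGF23 with limma, 5 had an unadjusted p below 0.05 (15.4% over all genes), and the median difference was -0.02. The smallest p belonged to Dusp13, a phosphatase of skeletal muscle and testis, with 0.33 (adjusted p = 0.258). Among them, 4 of the 23 fell in KL null kidney and 0 rose, beside 4.44% and 3.58% over all genes. Dusp15, known from oligodendrocytes, fell by 0.81 (SE 0.177, adjusted p = 0.0115), with signals of 6.32, 5.42, 6.04 and 5.86 in KL null arrays against 6.90, 6.40, 6.83 and 6.74 in vehicle arrays. The mitochondrial phosphatase gene Dusp18 fell by 0.55 (adjusted p = 0.00171), Dusp23 by 0.47 (0.0351) and Dusp19, whose product acts on the JNK cascade, by 0.34 (0.0283). Calls of Dusp15 and Dusp18 were kept in every alternative that gave a value. Dusp19 and Dusp23 each lost theirs without vehicle replicate 1, 2 or 3 or KL null replicate 2, 3 or 4, with adjusted p of 0.0616 to 0.0817 for Dusp19 and 0.0557 to 0.119 for Dusp23. These 4 genes differed by -0.25 to 0.03 after FGF23 and did not pass there.

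A list drawn up as other phosphatases acting on MAP kinases held 13 genes, among them tyrosine phosphatases and the PP2A and PP2C types. It also held Pea15a, which does not encode a phosphatase. After FGF23 0 passed the limma test and 2 had an unadjusted p below 0.05 (15.4% over all genes), with the smallest p for Ppm1k at -0.27 (adjusted p = 0.281). In KL null kidney Ppm1k, a mitochondrial PP2C phosphatase of branched-chain amino acid breakdown, rose by 0.73 (SE 0.105, adjusted p = 0.000671) and the other 12 did not pass. Over all genes, 3.58% were called higher there and 4.44% lower. Of 11 MAP kinases, 0 passed with limma in either comparison, with 5 after FGF23 and 4 in KL null kidney at an unadjusted p below 0.05, beside 15.4% and 21.3% over all genes. The smallest p-values were those of Mapk7, which encodes ERK5, with 0.30 after FGF23 (adjusted p = 0.241), and Mapk10, a JNK gene, with -0.34 in KL null kidney (adjusted p = 0.0864). Mapk10 passed in 5 of 21 alternatives, among them without FGF23 replicate 1 (adjusted p = 0.0498), and its difference was -0.14 with the mean over probe sets (adjusted p = 0.402).

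Upstream of the kinases, 22 genes of RAS, its exchange factors, adaptors and the kinase tiers were measured. After FGF23 0 passed with limma and 0 had an unadjusted p below 0.05 (15.4% over all genes). The smallest p was that of Sos1 at -0.17 (adjusted p = 0.452). In KL null kidney 1 of the 22 fell and 0 rose, beside 4.44% and 3.58% over all genes. There 6 had an unadjusted p below 0.05 (21.3% over all genes). The 1 that fell was Ksr2, a scaffold of the RAF-MEK-ERK module, by 0.39 (adjusted p = 0.0237). Its call was lost without vehicle replicate 1 or 3 or KL null replicate 2 or 4 (adjusted p 0.0683 to 0.0801). Among 6 receptor genes of the FGF23 signal, Kl was the 1 that fell in KL null kidney and 0 rose, beside 4.44% and 3.58% over all genes. After FGF23 0 of the 6 passed with limma and 0 had an unadjusted p below 0.05 (15.4% over all genes). Kl was at -0.10 (adjusted p = 0.551) and Fgfr2 at -0.15 (adjusted p = 0.39).

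**Figure D4:**
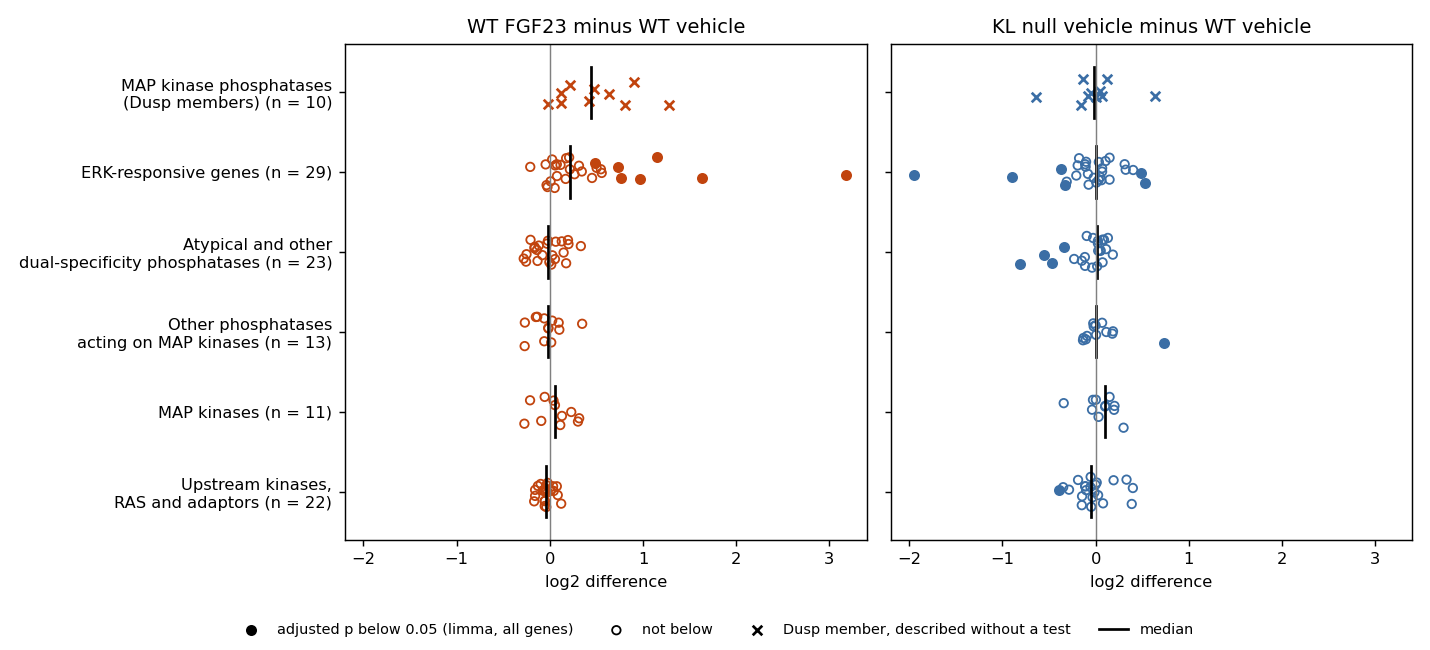
Log2 difference of every measured gene of 5 pathway lists and of the 10 phosphatase members, after FGF23 on the left and in KL null kidney on the right; filled points passed limma's test over all genes, open points did not, crosses are the members, shown without a call, and vertical bars are list medians. The FGF23 side has 7 filled points, all ERK-responsive genes above 0, and the KL null side has filled points on both sides of 0.

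The pattern of Dusp6 over the 12 arrays was compared with that of 17048 genes by Pearson's correlation, as a description over points that share 3 groups. The most alike were Prr5l, a component of the TORC2 complex, with r = 0.954, Spry4 with 0.942, the ubiquitin ligase gene Rnf186 with 0.936, Lcat, the plasma cholesterol esterifying enzyme, with 0.930, the cAMP-regulated exchange factor gene Rapgef3 with 0.926 and the hyaluronidase gene Hyal2 with 0.925. Prr5l differed by 0.50 after FGF23 and -0.26 in KL null kidney, Spry4 by 0.49 and -0.21, and Rnf186 by 0.54 and -0.62. These genes were picked for this pattern, so their differences are given here with no test. Only the adjusted p of Spry4 is given above, as a gene of the ERK-responsive list. Among the other members, Dusp5 was nearest to Dusp6 with r = 0.862, followed by Dusp4 with 0.804, Dusp2 with 0.732, Dusp7 with 0.602 and Dusp9 with 0.50. Dusp8 had 0.489, Dusp10 0.396, Dusp16 0.378 and Dusp1 the lowest, 0.220. After the group means were removed, the genes nearest to Dusp6 were others: the cytochrome P450 gene Cyp3a44 with r = 0.927, the phospholipid acyltransferase gene Mboat7 with 0.904, the SUMO protease gene Senp1 with 0.903, the RAF kinase gene Araf with 0.902, the chondroitin sulfotransferase gene Chst11 with 0.868 and the lipid kinase gene Pi4k2a with 0.851. None of these 6 was among the 6 genes nearest to Dusp6 before the group means were removed. Among the members, r with Dusp6 was then 0.483 for Dusp4, 0.265 for Dusp2 and 0.002 for Dusp5. It was -0.061 for Dusp16, -0.077 for Dusp7, -0.190 for Dusp8, -0.245 for Dusp10, -0.302 for Dusp1 and -0.331 for Dusp9. The 0.862 of Dusp5 over the 12 arrays thus came from the differences between groups.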

How the data were processed

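Kidney RNA from 12 arrays was analysed, 4 per group. The authors deposited log2 signals of probe sets. Per the submitters' processing notes these came from RMA with Partek 6.2. This method subtracts background, normalizes between arrays and summarises probes, and it compresses the differences of dim probe sets. Its settings are not given in the sources used here, and scanner files were not used, so no signal was set against its background. Precision is limited by the number of arrays.

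Of 28853 probe sets, 21789 had 1 gene symbol in the platform annotation, 1621 several and 5443 none. Only the first kind was used, with the probe set of the highest mean for each of 999 genes that had several, which gave 19938 genes. Entrez identifiers of 21698 probe sets matched the RefSeq gene table. Differences of group means, their SE and adjusted p-values came from 1 fit of 3 groups over all 12 arrays with limma 3.58.1 under R 4.3.3 (moderated two-sided test from lmFit and eBayes, Benjamini-Hochberg over all genes, called below 0.05), tested on simulated data. A fold is the antilog, base 2, of a difference. Tables and figures were made in Python 3.11.15.

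The members, gene lists and tests were chosen with earlier results of these data known. Named genes are the members, Kl, the called genes of each list (at most the 6 of smallest p) or, with none called, that of smallest p, and the 6 genes most like Dusp6 by each of 2 correlations, without predicted or unnamed loci. Spry4 was called and named beyond the 6 after its value was seen. Marker genes are described by counts. Alternatives were another normalization, the array SD as a covariate, another choice of probe set, a filter on dim genes, another moderation, array weights, fewer samples and a replicate block. Leaving out FGF23 replicates 1 and 2 together was added after seeing the data. Promoter windows are RefSeq's in GRCm38.p6. No call rests on pairing by replicate number.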

Additional observations from a re-analysis of the deposited data

Results flagged for a closer look

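In 11 of 102 sets of 4 arrays checked (34 genes in 3 groups), 1 array lay far from the other 3 of its group by Dixon's criterion, and chance alone gives about 1 in 20. Among the members, Dusp2 was at 6.39 in 1 FGF23 array against 5.87 to 5.92 in the other 3, and at 5.53 in 1 KL null array against 5.71 to 5.72. Dusp5 was at 6.53 in 1 KL null array against 6.25 to 6.28. Dusp8 was at 6.44 in 1 vehicle array against 6.69 in each of the others.

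Of the atypical phosphatases, Dusp13 reached 5.43 in 1 KL null array against 5.05 to 5.08. Dusp19 reached 7.73 in 1 vehicle array against 7.59 to 7.61, and Dusp23 reached 7.0 against 6.69 to 6.73. Ppm1k stood at 8.66 in 1 vehicle array against 8.40 to 8.41. Nab2 had a low array in each group, with 8.26 in FGF23, 7.53 in KL null and 7.69 in vehicle kidney.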

How the results depend on the processing

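Of 434 recomputed member differences, 430 moved by less than the spread between replicates. Leaving out 1 of 4 arrays cannot move a difference by that much. Another moderation, the replicate block, the dim filter and the fit of only the groups compared leave it unchanged. The count of 430 thus mostly follows from the settings and is no measure of stability. The 4 that moved were after FGF23: Dusp1 at 0.30 and Dusp10 at 0.02 without FGF23 replicates 1 and 2, and Dusp9 at -0.12 and Dusp10 at -0.04 with the array SD as a covariate. Of 566 recomputed differences of the other genes named from the lists, without Spry4, 500 kept their side of the threshold, 61 lost a call and 5 gained one (Mapk10). The Spry4 call, not counted here, was lost whichever of the 12 arrays was left out. With a call in either fit, 0 differences changed sign. The Sos1 difference after FGF23, called in no fit, was -0.17 and reached 0.04 among the alternatives. The count of 17 genes called after FGF23 was 9 after a further quantile normalization, 5 with each array centred on its median, 11 with the array SD as a covariate, 7 with only the 2 groups compared and 8 without FGF23 replicates 1 and 2. Leaving out single arrays gave 4 to 14. The 1598 calls in KL null kidney became 2852 with array quality weights and 828 to 1728 with 1 array left out. Their share of higher calls, 44.6%, was 24.9% after median centring. The 7 ERK-responsive genes called after FGF23 became 4 with median centring, with dim genes left out and with only the 2 groups compared, and 3 to 6 with 1 array left out. The 6 called in KL null kidney were 3 to 6 with 1 array left out and 5 to 7 under the other settings. The causes were not tested. The filter on dim genes removed 3 members, Dusp2, Dusp5 and Dusp10. With the replicate block, 6 genes were called after FGF23, 5 of them ERK-responsive genes, and 1548 in KL null kidney. Same-numbered arrays deviated from their group means with correlations of -0.216 to 0.259, and 6 of 12 arrays correlated best with their own number. Above 0.1 were 4 of 4 pairs of FGF23 with KL null arrays, but 2 of 4 of FGF23 with vehicle and 1 of 4 of KL null with vehicle, so the numbers were not taken to pair the samples compared.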

Other observations

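Markers of other tissues that a kidney sample can carry were also read. Of 8 adrenal gland genes, 0 passed limma's test after FGF23 and 3 had an unadjusted p below 0.05, with 7 of 8 differences positive. Over all genes, 15.4% had an unadjusted p below 0.05 there and 58.7% a positive difference. The array means were 5.13 and 5.10 in FGF23 replicates 1 and 2, 4.92 and 4.93 in FGF23 replicates 3 and 4, and 4.74 to 4.94 in vehicle kidney, so the FGF23 arrays above all vehicle arrays were those of narrowest spread. Of 7 lymphocyte genes 0 passed in either comparison. At an unadjusted p below 0.05 there were 0 after FGF23 and 1 in KL null kidney, beside 15.4% and 21.3% over all genes. Their array means ran from 4.63 to 5.09 over all 12 arrays. The part of these cells in the phosphatase values was not tested.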
